A study of Mus musculus with 4 samples.

Results

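The PIM kinases are the 3 genes Pim1, Pim2 and Pim3, found by name among 18751 distinct gene names in a table of read counts from PMN-MDSCs (polymorphonuclear myeloid-derived suppressor cells), which resemble neutrophils and dampen T cell responses to tumours. All 3 passed the filter on low counts that left 7685 genes for testing. Donor mice were C57BL/6, 8 weeks old, with a subcutaneous tumour of the mouse melanoma line B16-F10, and neutrophils were enriched magnetically 15 days after inoculation. Each genotype, wild type (WT) and CD300ld KO, had 2 libraries. The KO mice lack the myeloid cell receptor CD300ld, and both genotypes carried the tumour. The labels name neither the organ, nor the part of the gene removed, nor separate animals for the libraries, so p-values rest on the spread between libraries alone, which may be technical. The 3 members were chosen with the difference between KO and WT known, so their own values below are a description and carry no test.

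PIM kinases are serine/threonine kinases named after proviral integration sites of Moloney murine leukaemia virus. They have no regulatory domain and fold into an active state, and their activity is largely controlled through the amount of protein, which depends on its stability as well as on transcription and translation. Cytokine receptors that signal through JAK kinases and STAT factors, such as those for G-CSF, GM-CSF, interleukin-3 and erythropoietin, induce Pim1, which is known as an early cytokine response gene of haematopoietic cells. PIM kinases phosphorylate proteins of survival, the cell cycle and translation, among them the cell death factor BAD and the cell cycle inhibitors p21 and p27, and share many of these substrates with AKT.

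The promoters are shown because the levels of the 3 genes parted between genotypes although the genes are close relatives. Sequences are from RefSeq on build GRCm38.p6, which is not a build named for the counts, and run from 250 bases before to 50 bases after an annotated start. Capitals mark the GC box GGGCGG on either strand, and in the second Pim1 start the E-box CACGTG.
Pim1, first start, chr17:29490535-29490834, + strand: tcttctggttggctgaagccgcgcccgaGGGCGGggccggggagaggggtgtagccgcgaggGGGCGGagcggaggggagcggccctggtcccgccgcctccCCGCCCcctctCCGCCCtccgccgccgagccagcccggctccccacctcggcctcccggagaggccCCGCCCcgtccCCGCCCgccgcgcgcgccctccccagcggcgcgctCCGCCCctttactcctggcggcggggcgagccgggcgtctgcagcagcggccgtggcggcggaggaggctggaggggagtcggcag
Pim1, second start, chr17:29492835-29493134, + strand: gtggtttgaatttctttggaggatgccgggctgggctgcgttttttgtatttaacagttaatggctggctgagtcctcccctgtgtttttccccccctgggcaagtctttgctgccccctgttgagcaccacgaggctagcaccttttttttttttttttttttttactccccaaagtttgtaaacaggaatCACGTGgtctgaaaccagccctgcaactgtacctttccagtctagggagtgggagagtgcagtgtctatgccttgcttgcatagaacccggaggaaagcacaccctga
Pim2, chrX:7878056-7878355, + strand: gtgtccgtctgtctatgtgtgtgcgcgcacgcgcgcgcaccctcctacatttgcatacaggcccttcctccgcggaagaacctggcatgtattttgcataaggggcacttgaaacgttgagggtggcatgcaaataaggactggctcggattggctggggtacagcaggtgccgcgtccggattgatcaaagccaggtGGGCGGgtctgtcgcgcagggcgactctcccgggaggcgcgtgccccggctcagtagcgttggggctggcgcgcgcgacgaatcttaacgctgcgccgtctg
Pim3, chr15:88861944-88862243, + strand: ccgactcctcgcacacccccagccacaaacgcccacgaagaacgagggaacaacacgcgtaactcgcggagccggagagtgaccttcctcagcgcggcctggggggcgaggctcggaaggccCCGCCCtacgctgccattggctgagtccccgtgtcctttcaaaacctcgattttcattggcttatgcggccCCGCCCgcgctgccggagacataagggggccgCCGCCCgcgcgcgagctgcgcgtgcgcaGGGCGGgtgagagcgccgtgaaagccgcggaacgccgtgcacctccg

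The first Pim1 promoter was 81.3% G and C and held 7 GC boxes, the letters bound by SP and KLF factors. The Pim3 promoter was 69% G and C with 4 GC boxes, and the Pim2 promoter 62.7% with 1. The second Pim1 start was 49% G and C, with 0 GC boxes and 1 E-box, the letters bound by MYC and other basic helix-loop-helix factors. The median over 32841 promoter entries of the same length was 52.7%, and 35.7% of them held a GC box and 7.15% an E-box. The STAT element TTCNNNGAA, present in 8.3% of those entries, and the TATA box TATAAA, present in 13.6%, had 0 matches in all 4 windows. STAT sites outside these windows, or of another spacing, were not searched for. Both strands were searched, and no 2 matches overlapped. Across the coding sequences of their longest coding transcripts (GENCODE M21) Pim1 and Pim3 were identical at 74.5% of aligned bases. Pim1 and Pim2 were identical at 65.3%, and Pim2 and Pim3 at 66.1%. The Pim2 sequence had 1127 bases, which is not a whole number of codons, so the values with Pim2 are approximate. The longest coding transcripts shared 0 stretches of 25 bases, on either strand, between any 2 of the genes. Pim1 shares 468 exonic bases with Gm26885, an antisense gene on the opposite strand that has no row of its own in the table. No source used here says whether counting used strand, so reads from both strands cannot be told apart there.

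Pim1 differed most between genotypes. WT libraries held 19 and 27 counts of it, KO libraries 251 and 280. As CPM (counts scaled to the same library size, here with TMM factors), these were 29.2 and 29.9 in WT and 316 and 338 in KO. The libraries of each genotype lay close together and the groups were far apart, with a ratio of KO to WT between 10.6 and 11.6 for each of the 4 pairs of libraries. The fitted log2 fold change was 3.46 ± 0.22 (SE, n = 2 libraries each), an 11-fold higher level in KO. The ratio of summed counts was 11.1, and counting error alone allows 8.17 to 15.3 (exact 95% interval).

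Pim2, an X-linked member best known from lymphoid cells, had 28 and 44 WT counts against 42 and 47 KO counts. Its levels were 43.0 and 48.7 CPM in WT and 52.9 and 56.7 CPM in KO. The KO libraries were slightly the higher, and the groups did not overlap. The log2 fold change was 0.25 ± 0.31 (SE), and the ratio of summed counts 1.18 (exact 95% interval 0.858 to 1.64). Without WT library 1 the log2 fold change was 0.15, and without WT library 2 it was 0.34.

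Pim3, the member closest to Pim1 in sequence, had 11 and 19 WT counts against 11 and 14 KO counts. Its levels were 16.9 and 21.05 CPM in WT and 13.9 and 16.9 CPM in KO, so that the groups met at their edges. The log2 fold change was −0.31 ± 0.54 (SE), and the ratio of summed counts 0.798 (exact 95% interval 0.450 to 1.40). Without WT library 2 the log2 fold change was −0.14, and without WT library 1 it was −0.47. At 11 to 19 counts a library, a change of Pim3 as small as these values was not detectable, and the intervals of Pim2 and Pim3 do not show that the genes were equal in KO and WT.

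Of the 3 members, Pim1 had an adjusted p below 0.05 in edgeR, as did 5.97% of all tested genes (2.71% higher and 3.27% lower in KO). In Pim1 and Pim2 the libraries of the genotypes did not overlap, as in 48.2% of tested genes. Since members were chosen on this contrast, nothing is read from these counts.

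**Figure D1:**
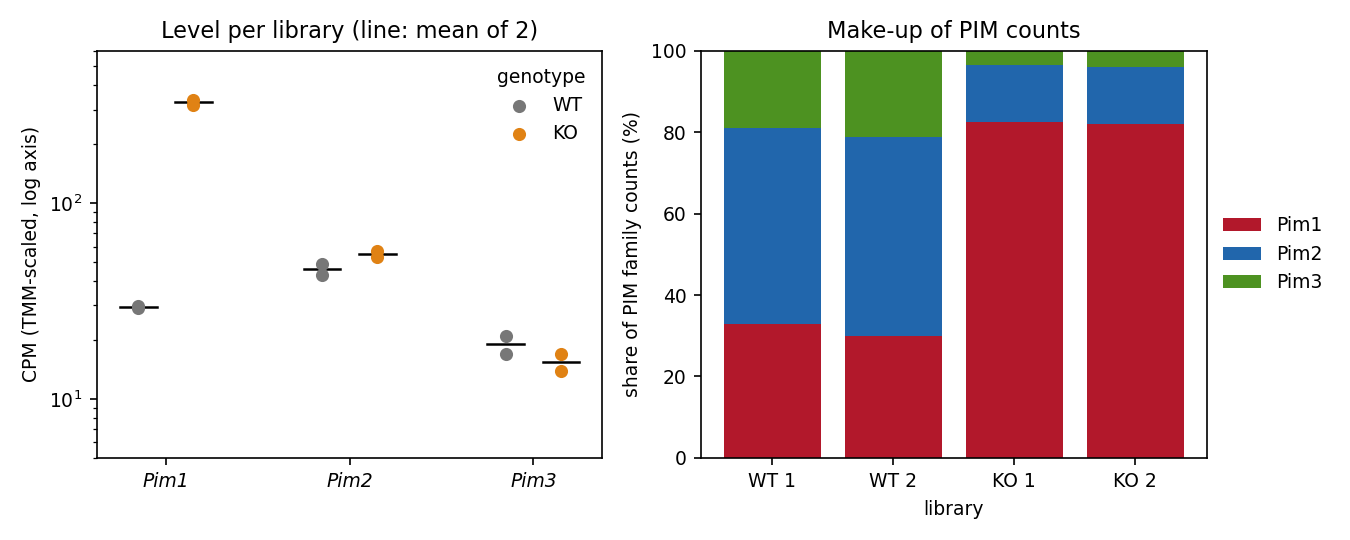
Left, CPM on a log axis for each PIM gene in the 2 WT (grey) and 2 KO (orange) libraries, with lines at the means. Right, the share of the summed PIM counts of each library that each gene took. Pim1 stood at 29.2 and 29.9 CPM in WT and at 316 and 338 CPM in KO, while Pim2 and Pim3 lay within 13.9 to 56.7 CPM.

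The order of the 3 genes by mean level differed between genotypes. Per kilobase of the longest coding transcript, WT libraries had 22.4 ± 1.98 CPM of Pim2, 10.95 ± 0.190 of Pim1 and 7.82 ± 1.21 of Pim3 (mean ± SD, n = 2). In KO libraries Pim1 came first with 121 ± 5.74 CPM per kilobase, then Pim2 with 26.8 ± 1.33 and Pim3 with 6.34 ± 0.888. The values of neighbours in either order did not overlap between libraries of a genotype. In each WT library, however, the exact 95% interval of the Pim1 count overlapped those of Pim2 and of Pim3. In WT library 1 the intervals were 11.4 to 29.7 for Pim1, 18.6 to 40.5 for Pim2 and 5.49 to 19.7 for Pim3. In WT library 2 they were 17.8 to 39.3 for Pim1, 32.0 to 59.1 for Pim2 and 11.4 to 29.7 for Pim3. Counts within a WT library thus do not settle the place of Pim1 in the WT order. Levels per length are approximate here, because counts did not rise with transcript length: the median gene had 8.75 counts per library in the shortest of 4 equal classes of transcript length and 7.75 in the longest.

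Pim1 took 32.8% and 30% of all PIM counts in the WT libraries, with exact (Clopper-Pearson) 95% intervals of 21.01% to 46.3% and 20.8% to 40.6%. In the KO libraries it took 82.6% (77.8% to 86.7%) and 82.1% (77.6% to 86.0%). The counts of Pim1 were 0.679 and 0.614 times those of Pim2 in WT and 5.98 and 5.96 times in KO. The summed level of the family was 94.4 ± 7.50 CPM in WT and 397 ± 20.3 CPM in KO (mean ± SD, n = 2). Pim2 and Pim3 together made up 64.9 ± 6.99 CPM of it in WT and 70.2 ± 4.87 CPM in KO. These ratios are the same data as the levels above, seen within each library.

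Among the 7685 tested genes, Pim1 was exceeded in log2 fold change by 10. Of these, H2-Ea-ps, a class II histocompatibility pseudogene, had 274 and 313 counts in KO against 0 and 1 in WT. The other 9 had at most 38 counts in any KO library, and none of the 10 had more than 3 counts in a WT library. By level, Pim1 ranked 4648 and 4608 among tested genes in WT and 344 and 300 in KO. By mean level it stood above 38.5% of tested genes in WT and above 95.8% in KO. Pim2 stood above 57.7% and 64.8%, and Pim3 above 20.5% and 13.2%.

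**Figure D2:**
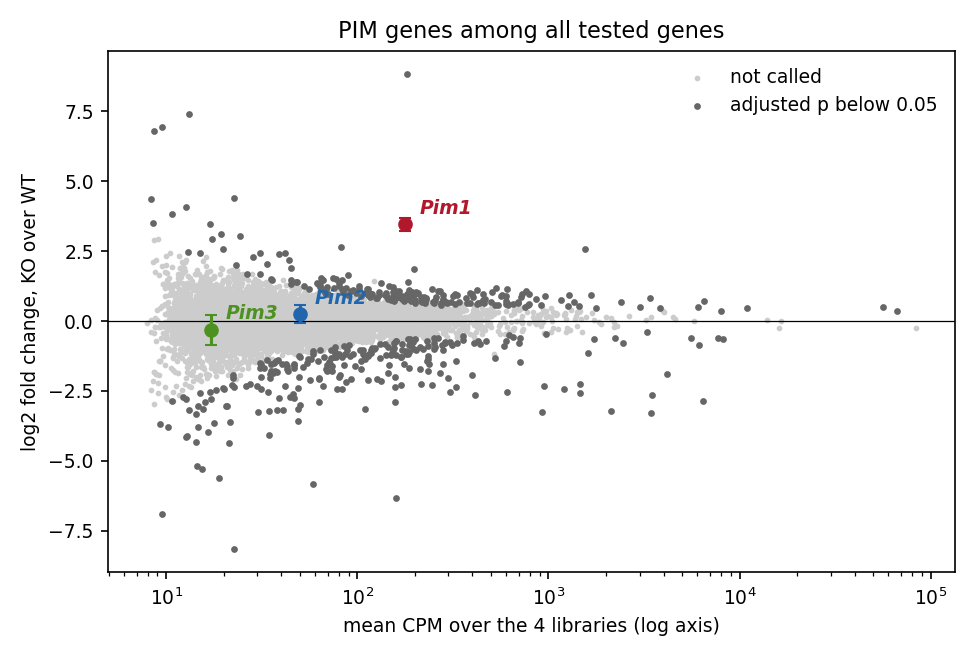
Log2 fold change of KO over WT against mean CPM on a log axis for the 7685 tested genes, with genes called at an adjusted p below 0.05 in dark grey and the PIM genes in colour with SE bars. Pim1 lies at 3.46, away from most genes of like mean level, though H2-Ea-ps lies higher at 8.82. Pim2 (0.25) and Pim3 (−0.31) lie within the mass of uncalled genes.

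Library totals ran from 674599 to 920839 counts. With TMM-scaled sizes of 650939 to 902642 counts over tested genes, 1 count was worth 1.11 to 1.54 CPM. The knocked-out gene, Cd300ld, was at 0 and 11 counts in WT libraries against 2 and 3 in KO libraries, too few to check the genotype labels. The preparation was mixed, and markers of several cell types moved in the same libraries as Pim1. Of 15 neutrophil markers, 12 were lower in KO and 0 higher, and their summed level was 34698 to 38781 CPM in WT and 5231 to 5825 CPM in KO. Of 13 tested erythroid markers, 9 were higher and 0 lower, and the summed level of that list was 145613 to 150462 CPM in WT and 184387 to 201373 CPM in KO. The call of Hbb-b1, which is among those 9, ended without KO library 1, where its log2 fold change was 0.30 against 0.37 with all libraries. Of 12 tested monocyte and macrophage markers, 4 were lower and 0 higher in edgeR (1633 to 1784 CPM in WT and 874 to 1020 CPM in KO). DESeq2 called 3 of them and limma-voom 3, and 8 had an unadjusted p below 0.05 in edgeR. The share of all tested genes at that unadjusted threshold is not given here. Counts at it, in this list and those below, are therefore not read as a result. The call of Emr1 (adjusted p = 0.0415 in edgeR) ended in DESeq2 (0.178), in limma-voom (0.0514), with the 1 CPM filter (0.0696) and without WT library 1 (0.105), WT library 2 (0.0747) or KO library 2 (0.131), and that of C1qb ended without WT library 2 (0.0788). B cell markers had 0 calls in edgeR and DESeq2 among 10 tested, 1 in limma-voom and 3 at an unadjusted p below 0.05 (4429 to 5186 CPM in WT and 5849 to 6439 CPM in KO). Ighm (0.37, adjusted p = 0.0755 in edgeR) was called higher in limma-voom (0.0181) and in edgeR without the filter (0.0220). It was also called in edgeR without haemoglobin and mitochondrial genes (0.0466), with column numbers as a replicate block (0.00925) and without WT library 2 (log2 fold change 0.51). T and NK cell markers had 1 lower among 12 (369 to 418 CPM in WT and 450 to 461 CPM in KO). Every gene with a row had counts in at least 1 library, so the presence of a marker's row is no finding about these lists. In bulk RNA, fewer cells of a type and less RNA per cell cannot be told apart. The part of cell composition in the Pim1 level was not tested.

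Around the PIM genes, 7 lists of 124 distinct genes were described: receptors, JAK and STAT genes, other STAT-induced genes, NF-κB genes, PIM substrates, the AKT pathway, and the chaperones and PP2A subunits that act on PIM proteins. Of the 108 tested, 3 were higher and 1 was lower in KO in edgeR (adjusted p below 0.05), or 3.70%, against 5.97% of all tested genes. A share so near the background is no result about the lists. The median log2 fold change over all tested genes was 0.0025.

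Upstream, 17 of 20 cytokine receptor genes were tested, of which 1 was higher and 1 lower, with a median of −0.17. Epor, the erythropoietin receptor, had 79 and 83 WT counts against 157 and 209 KO counts. Every KO library lay above every WT library, and the gene rose by a log2 fold change of 1.09 ± 0.21 (edgeR, adjusted p = 0.00457). It is also among the erythroid markers, which were higher in the same libraries. Csf2rb, the shared β chain of the receptors for GM-CSF, interleukin-3 and interleukin-5, had 126 and 130 WT counts against 81 and 72 KO counts. Its log2 fold change was −0.83 ± 0.23 (adjusted p = 0.0393 in edgeR), and the call ended in DESeq2 (adjusted p = 0.143), without WT library 1 (0.231) and without KO library 2 (0.151). Csf3r, the G-CSF receptor, is a further receptor that induces Pim1, and had 46 and 65 WT counts against 61 and 42 KO counts (−0.17 ± 0.29, adjusted p = 0.832 in edgeR).

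All 11 JAK and STAT genes were tested and 0 were called in edgeR, DESeq2 or limma-voom. At an unadjusted p below 0.05 the count was also 0, and the median was 0.14. The median was of either sign across settings, between −0.27 and 0.16. Jak1, the most abundant, had 174 and 216 WT counts against 265 and 213 KO counts (0.22 ± 0.18, adjusted p = 0.563). Stat5a, which encodes a factor that binds the Pim1 gene in cytokine-treated cells, had 26 and 44 WT counts against 52 and 31 KO counts (0.20 ± 0.35, adjusted p = 0.834). Csf3r and Stat5a were named after their values were seen, as were Ccnd1, Cebpd, Cish, Bcl2l1, Myc and Mark3.

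The other tested genes of the list known to be induced by STAT factors had smaller log2 fold changes than the 3.46 of Pim1. Of 18 such genes 13 were tested, 1 was higher and 0 were lower in edgeR, and 3 had an unadjusted p below 0.05, with a median of 0.04 that was of either sign across settings (−0.13 to 0.14). Junb, an AP-1 subunit, had 154 and 276 WT counts against 390 and 471 KO counts, and rose by a log2 fold change of 0.96 ± 0.17 (adjusted p = 0.00184 in edgeR). Ccnd1, encoding cyclin D1, had 14 and 33 WT counts against 3 and 11 KO counts (−1.76 ± 0.61, adjusted p = 0.111 in edgeR). Its adjusted p ran from 0.0191 to 0.600 over 12 alternatives, and it was called lower in a pair of them, those that left out KO library 2 or WT library 1 (0.0466). Cebpd, encoding a C/EBP factor, had 24 and 49 WT counts against 21 and 19 KO counts (−0.90 ± 0.39, adjusted p = 0.223 in edgeR). Both genes had fewer counts in each KO library than in either WT library. Cish, a feedback inhibitor induced by STAT5, had 88 and 101 WT counts against 139 and 106 KO counts (0.30 ± 0.22, adjusted p = 0.528). Bcl2l1, which encodes the survival protein BCL-XL, had 550 and 731 WT counts against 702 and 703 KO counts (0.07 ± 0.13, adjusted p = 0.847). The difference between Pim1 and these genes was not tested. Pim1 was chosen with this contrast known, and 10 of 7685 tested genes exceeded it, so nearly any list would lie below it.

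The NF-κB pathway, a further route to Pim1 induction, had 0 calls in edgeR, DESeq2 or limma-voom among 14 tested genes, and 0 at an unadjusted p below 0.05, with a median of −0.10 (−0.14 to 0.07 across settings). Its most abundant members were Nfkbia, encoding the inhibitor IκBα, with 121 and 243 WT counts against 173 and 228 KO counts, and Ikbkb, encoding an IκB kinase, with 41 and 85 in WT and 91 and 62 in KO. In each of them the libraries of the genotypes overlapped.

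Downstream, 23 of 28 genes of PIM substrates were tested, of which 1 was higher and 0 were lower, with a median of 0.40 (0.23 to 0.40 across settings). By log2 fold change 15 of the 23 lay above 0, and in 13 the libraries of the genotypes did not overlap, against 48.2% of all tested genes. Foxo3, encoding a forkhead factor that PIM and AKT kinases phosphorylate, had 329 and 426 WT counts against 934 and 747 KO counts. It rose by a log2 fold change of 1.09 ± 0.15 (adjusted p = 0.000227 in edgeR). The erythroid markers, which do not include Foxo3, were higher in the same libraries, and a link between them and Foxo3 was not tested. Mark3, encoding a kinase that acts on CDC25C, had 9 and 10 WT counts against 23 and 21 KO counts (1.13 ± 0.51, adjusted p = 0.246). Myc, a partner of PIM1 in lymphoma, had 64 and 170 WT counts against 162 and 167 KO counts (0.47 ± 0.24, adjusted p = 0.308 in edgeR). Scaled for library size, it stood at 143 ± 63.7 CPM in WT and 203 ± 1.72 CPM in KO (mean ± SD, n = 2). On that scale WT library 2 lay slightly below the KO libraries and WT library 1 far below them. These are transcript levels of the substrates, and phosphorylation was not measured.

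The PI3K-AKT-mTOR pathway, which shares substrates with PIM kinases, had 0 calls in edgeR, DESeq2 or limma-voom among 22 tested genes of 24, and 2 at an unadjusted p below 0.05 in edgeR, with a median of 0.03 (−0.16 to 0.16 across settings). Inpp5d, encoding the lipid phosphatase SHIP1, had 123 and 127 WT counts against 140 and 120 KO counts, and Eif4e, encoding the cap-binding protein, 74 and 109 in WT and 87 and 104 in KO. Of the chaperones that stabilise PIM proteins and the PP2A subunits that oppose them, 12 of 13 were tested, with a median of 0.0027 (−0.28 to 0.12 across settings). In edgeR and DESeq2 0 were called, in limma-voom 1, and 4 had an unadjusted p below 0.05 in edgeR. Hsp90ab1, an HSP90 chaperone gene, had 1071 and 1600 WT counts against 979 and 1126 KO counts. Its log2 fold change was −0.40 ± 0.12 (adjusted p = 0.0582 in edgeR, and between 0.0038 and 0.394 over 12 alternatives). Hspa8, a constitutive HSP70 gene, had −0.31 ± 0.12 (adjusted p = 0.150 in edgeR).

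**Figure D3:**
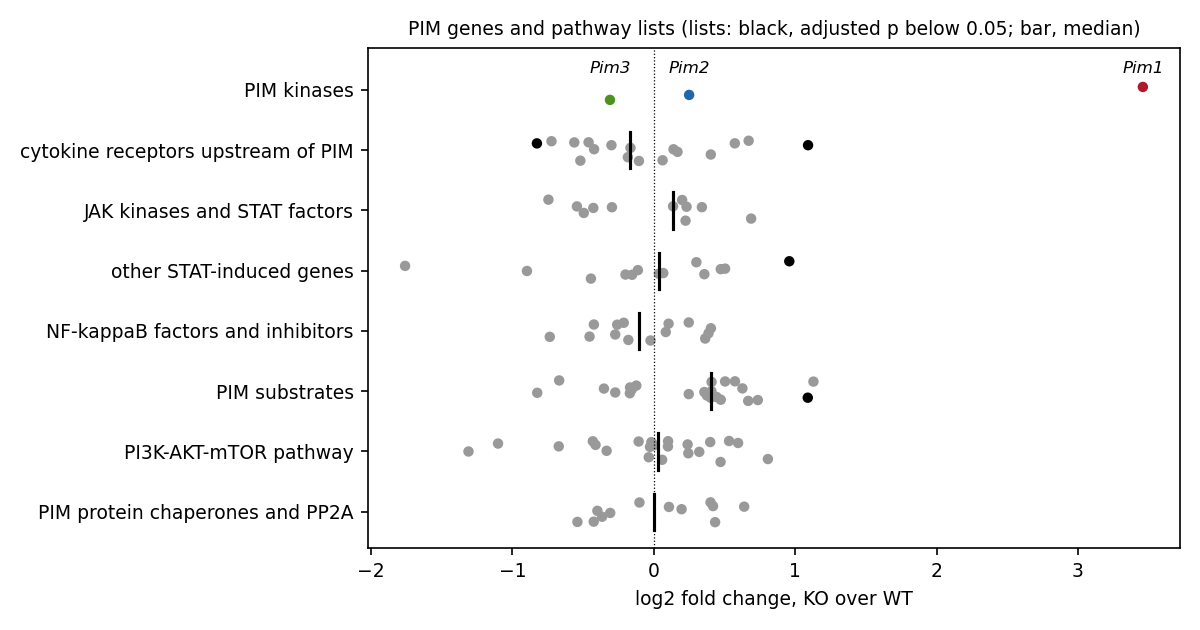
Log2 fold change of KO over WT for the 3 PIM genes and for each tested member of 7 pathway lists, with called list members in black, others in grey and a bar at each list's median. Pim1 at 3.46, which 10 of 7685 tested genes exceed, lies beyond every list member shown. The 4 called list members are Epor, Csf2rb, Junb and Foxo3.

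The 3 genes lie on chromosomes 17, X and 15, and the tested genes beside them were compared in the order of the RefSeq annotation, 10 on each side (7 on one side of Pim2, since no more precede it on X). Of 20 neighbours of Pim1, 1 was higher and 0 lower, with a median of −0.01 and a range from −1.23 to 1.06. That gene was Brpf3, encoding a chromatin reader, with 60 and 102 WT counts against 179 and 170 KO counts (1.06 ± 0.20, adjusted p = 0.00377 in edgeR). The nearest tested genes on either side were Fgd2, encoding an exchange factor for CDC42, at 0.28 ± 0.23, and Rnf8, encoding a ubiquitin ligase of the DNA damage response, at 0.15 ± 0.34. Both were named for their place, and neither was called (adjusted p = 0.591 and 0.881 in edgeR). Of 384 tested genes on chromosome 17, 20 were called, or 5.21%, against 5.97% of all genes. H2-Ea-ps lies on the same chromosome with 51 tested genes between it and Pim1, of which 3 were lower and 0 higher in KO (5.88%). Those 3 were Myo1f, Rps18 and H2-K1, named for their place. Any strain difference between the KO and WT mice on this chromosome cannot be told apart from the knockout itself as regards Pim1.

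Of 17 neighbours of Pim2, 2 were higher and 0 lower, with a median of 0.17, and on the whole X chromosome 12 of 220 tested genes were called (5.45%, against 5.97% of all genes). Otud5, encoding a deubiquitinase and the nearest tested gene on one side, had 213 and 319 WT counts against 401 and 460 KO counts (0.64 ± 0.15, adjusted p = 0.0144 in edgeR), and its call ended without KO library 2 (adjusted p = 0.121). Gata1, the erythroid transcription factor gene and one of the erythroid markers, had 107 and 129 WT counts against 225 and 224 KO counts (0.85 ± 0.18, adjusted p = 0.00733). Among 20 neighbours of Pim3, 0 were called in edgeR, DESeq2 or limma-voom, 3 had an unadjusted p below 0.05, and the median was 0.13. On chromosome 15, 19 of 307 tested genes were called (6.19%).

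**Figure D4:**
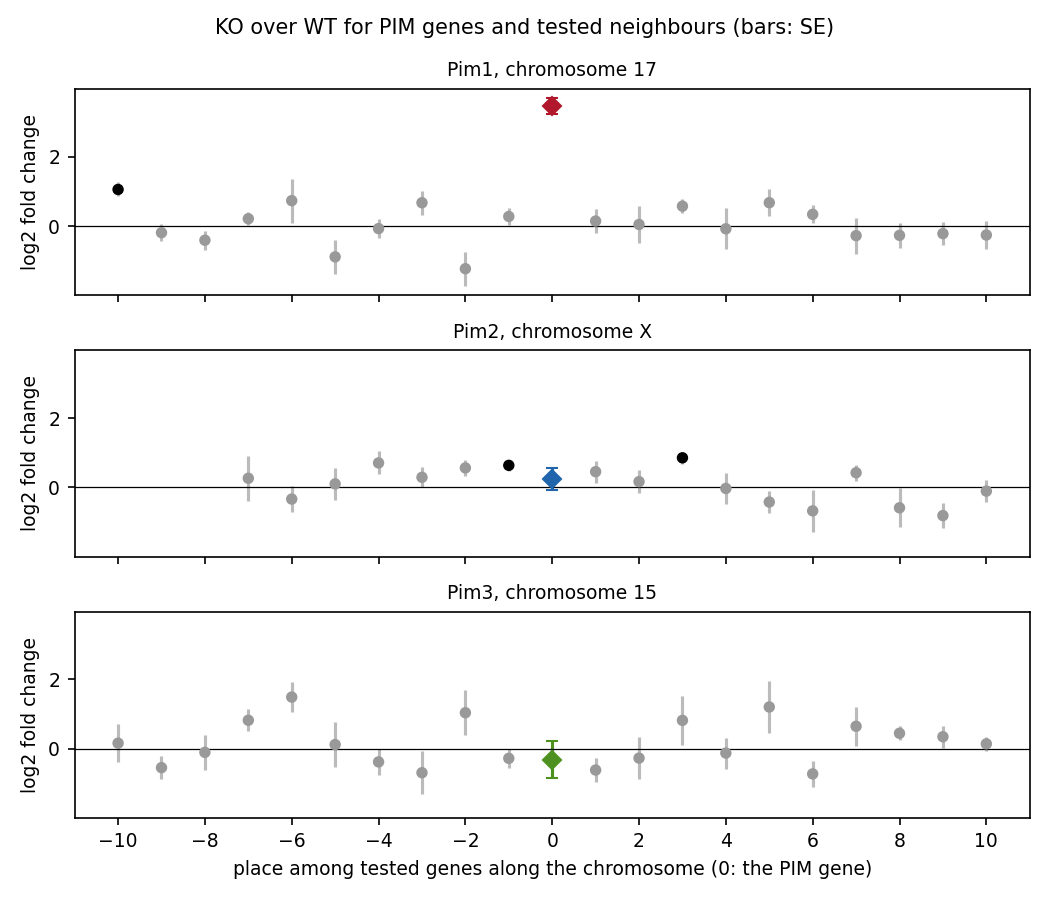
Log2 fold change of KO over WT with SE bars for each PIM gene (coloured diamond) and the tested genes on either side, in annotation order along the chromosome, with called neighbours in black. The 20 neighbours of Pim1 lie between −1.23 and 1.06, all below Pim1 at 3.46, which 10 of 7685 tested genes exceed.

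The genes closest to each PIM gene in profile were found by the distance between log2 CPM values over the 4 libraries, each gene centred on its mean, among genes of at least 20 CPM on average. For Pim1 they were Gm11223, Alad, Gm15487, Trib3 and Gm13699, at distances from 0.769 to 1.14. Alad, an enzyme of haem synthesis, had 295 and 396 WT counts against 2130 and 2196 KO counts. Trib3, encoding a pseudokinase of the stress response that binds AKT, had 16 and 19 WT counts against 101 and 130 KO counts. All 5 were higher in both KO libraries than in either WT library, a pattern that the choice by likeness sets. For Pim2 the closest were Elf2, Ubap1, Mrps30, Fbxl5 and B230312A22Rik (0.0378 to 0.0642), and for Pim3 Ngdn, Stra13, Fip1l1, Eif4a1 and Aldh3a2 (0.0534 to 0.0805). Pim1 was thus farther from its closest genes than Pim2 and Pim3 were from theirs. The size of its fold change, known when it was chosen, made this likely, since 10 of 7685 tested genes exceeded it. With 4 libraries such likeness is a description of these profiles alone.

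**Figure D5:**
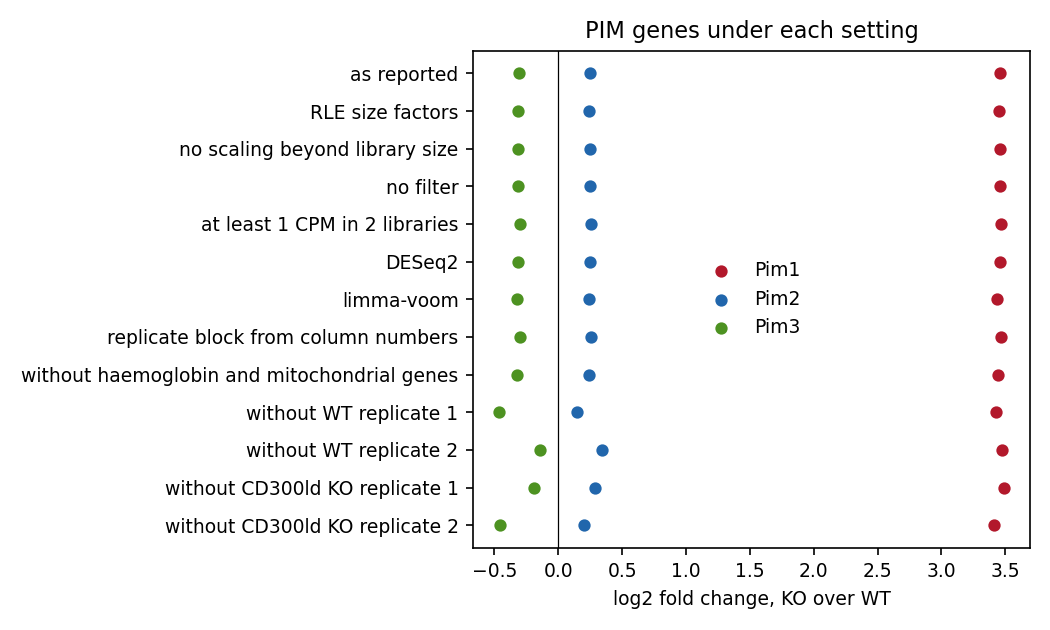
Log2 fold change of KO over WT for the 3 PIM genes under the reported analysis and 12 alternative settings. Pim1 stays between 3.41 and 3.49, Pim2 between 0.15 and 0.34 and Pim3 between −0.47 and −0.14.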

How the data were processed

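Per the labels' protocols, TRIzol RNA went into Illumina TruSeq libraries. The deposited table holds raw whole-number read counts per gene. The submitters' processing notes name Bowtie 0.12.2 and the builds mm8 and mm9 with no role. The counter, annotation, strand setting and any filter were not given in the sources used here. The table held 21831 rows; the 205 names on several rows held identical values and were kept once. Column names gave the genotype but no sample, so library numbers are names only, with no pairing.

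The fit used edgeR 4.0.16 in R 4.3.3: TMM scaling, filterByExpr by genotype (minimum count 10, minimum total 15), the quasi-likelihood test between genotypes and Benjamini-Hochberg adjustment over 7685 genes, threshold 0.05. The SE was the log2 fold change divided by the square root of F. The procedure was tested on simulated data. Gene order came from RefSeq (GRCm38.p6, 17572 of 18751 names matched) and transcript lengths from GENCODE M21 (15007 matched). Coding sequences were aligned with Biopython 1.88. Profiles used log2 CPM with a prior count of 2. Without molecular identifiers, intervals cover only counting error.

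The members, lists and tests were chosen with earlier results of these data known. Named genes were the 3 members, up to 4 called genes of each list by p (or the 2 most abundant), the 5 closest profiles, and called chromosome neighbours. 1 gene that the rule names is not reported here. Of the marker lists, counts and summed levels are given, with Emr1, C1qb, Hbb-b1 and Ighm named because their calls depend on the setting. Marker genes that the rule does not name were not followed one by one across settings. Alternatives were RLE factors, no scaling, no filter, 1 CPM in 2 libraries, DESeq2 1.42.0, limma-voom (limma 3.58.1), leaving out haemoglobin and mitochondrial genes, leaving out each library and, added after the data were seen, a replicate block from the column numbers.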

Additional observations from a re-analysis of the deposited data

How the results depend on the processing

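Pim1 kept its direction under all 12 alternatives (3.41 to 3.49 on the log2 scale), as did Pim2 and Pim3. When 1 library was left out, Pim1 ran from 3.41 to 3.49, Pim2 from 0.15 to 0.34 and Pim3 from −0.47 to −0.14, the called genes from 412 to 538, the called list members from 4 to 6 and the called chromosome neighbours from 3 to 5 (5 without KO library 1). The lone library of a genotype was then assumed to vary like the others, and the filter was run anew. DESeq2 called 299 genes against 459 in edgeR (124 against 208 of them higher in KO), and the cause was not tested.

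Some uncalled genes near 0 turned sign. Eif4e (0.0023) was −0.0063 with RLE factors, −0.0056 in DESeq2, −0.0028 in limma-voom and −0.010 without haemoglobin and mitochondrial genes. When 1 library was left out, Eif4e ran from −0.10 to 0.083, Nfkbia from −0.15 to 0.40, Ikbkb from −0.10 to 0.58 and Inpp5d from −0.24 to 0.17. The cause was not tested. A fit with the number in the column names as a replicate block, added after the data were seen, left 1 residual degree of freedom and called 558 genes, among them all 459 called without it. Pim1 was then at 3.46, Pim2 at 0.26 and Pim3 at −0.30, with 5 list members and 4 chromosome neighbours called, and Hsp90ab1 had an adjusted p of 0.0263. No label says that the number marks a pairing, and the deviations of same-numbered libraries from their genotype means had a correlation of −0.03 across 7685 genes, which are not independent replicates. With 11 to 19 Pim3 counts per library, only large changes of that gene could be seen.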
